A study of Mus musculus with 9 samples.

Results

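A group of genes of the Polycomb system and of the enzymes that erase its mark on histone H3 lysine 27 (H3K27) were followed in growing mouse oocytes with XX, XO or XY sex chromosomes. The members, 10 of the 28052 genes with a count row, were taken by gene name, and no measured value enters the rule, although earlier results of these data were known when the list was drawn up. They are the Polycomb repressive complex 2 (PRC2) genes Ezh1, Ezh2, Eed and Suz12, the PRC1 genes Rnf2, Ring1, Pcgf1 and Pcgf6, and the H3K27 demethylase genes Kdm6a and Kdm6b. Of the 10, 8 had enough UMIs to be tested, among 10993 genes tested in all, and Ring1 and Kdm6b did not.

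Each of the 9 samples, 3 per genotype, was a pool of 30 oocytes from females of 18 dpp (days post partum), with 10 oocytes of 50 to 55 µm and 20 of 55 to 60 µm in diameter. XX and XY females were littermates of each other, born to B6 females mated with B6.YTIR males, the XY females being sex-reversed by a Y chromosome of another origin on the B6 background. XO females came from a separate cross, of Paf carrier males on a B6 background backcrossed from C3H/HeSnJ, so that cross and genotype cannot be told apart in any comparison with XO. Libraries were made by Smart-seq3, in which a random tag, the unique molecular identifier (UMI), is placed at the 5′ end of a transcript. One UMI stands for one 5′ end, and levels of different genes were therefore compared without division by length. Whether 5′ ends of long and short transcripts were captured equally was not tested. Levels are given as normalized CPM, the UMIs of a gene divided by the gene total of the sample times a factor from ERCC spike-in RNAs. Samples are named by genotype and replicate number, as XX1. The pools of a genotype are described as biological replicates and ovaries as dissociated one by one, but whether each pool came from separate females is not stated. P-values measure only the spread between pools. A gene is called, or said to rise or fall, where the unadjusted p of the edgeR test lay below 0.05, the threshold of the study, and the adjusted p given with it is over all genes tested. Where values of genotypes are said not to overlap, the share of all tested genes without overlap was not counted.

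Samples held 2130145 to 3157338 gene UMIs. The oocyte identity of the pools was checked with 8 marker genes (Zp1, Zp2, Zp3, Gdf9, Figla, Nobox, Oosp1 and Ddx4), of which 8 were tested and which together had 462659 UMIs. Their summed level lay at 20494 to 21348 normalized CPM for XX, 15087 to 25487 for XO and 16720 to 20622 for XY samples. Zp2 held 335819 of these UMIs, and 3 of the 8 markers (Zp1, Gdf9 and Nobox) were called lower in XX and in XY than in XO under spike-in and under TMM factors. Of 8 granulosa cell markers, 6 had a count row and 533 UMIs in all, 463 of them from Cyp19a1, and the summed level was 10.5 to 25.6 for XX, 5.18 to 35.0 for XO and 14.9 to 46.8 for XY samples. Theca and stroma markers had 35 UMIs and leukocyte markers 5. The 3 endothelial markers had 1149 UMIs, 1104 of them from Pecam1. XO1 and XY1 were together the lowest samples in 1945 genes and the highest in 2040, among 10981 tested genes with a name of their own. This pair was picked after the data were seen, and no other pair was counted in this way. Counts that rest on XO1 and XY1 are given with and without the pair.

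The spike-in scaling set the frame of every comparison. The median log2 fold change over all tested genes was -0.46 for XX against XO, -0.19 for XX against XY and -0.30 for XY against XO. With TMM factors computed from the genes themselves the medians were -0.11, -0.01 and -0.13. Fold changes of the members are therefore also given relative to the median of all genes where a call depends on it. The spike-in factor was computed relative to the spike-in total, so that the amount of RNA per spike-in did not enter, and in pools fewer cells of a type and less RNA per cell cannot be told apart.

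Polycomb proteins keep developmental genes silent by marking histones. PRC2 methylates H3K27, with EZH2 or EZH1 as the catalytic subunit, EED as the reader of the methylated tail and SUZ12 as the scaffold. PRC1 adds ubiquitin to histone H2A through RNF2 (RING1B) or RING1 (RING1A), and one of several PCGF proteins decides which PRC1 complex forms. KDM6A and KDM6B remove methyl groups from H3K27, and the Y chromosome carries Uty, a homolog of Kdm6a whose product has little catalytic activity. Growing mouse oocytes carry broad H3K27me3 domains, some of which later act as maternal imprints, and Kdm6a is among the X-linked genes known to escape X inactivation in somatic cells.

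The members spanned a wide range of levels. Pcgf1 was the member with most UMIs in 7 samples and Ezh2 in 2, XO1 and XY1. Averaged over the 9 samples, Pcgf1 stood at the 99.0th percentile of detected genes, Ezh2 at the 98.6th, Pcgf6 at the 96.5th, Rnf2 at the 93.8th, Suz12 at the 92.7th, Eed at the 91.8th and Kdm6a at the 90.5th. Ezh1 followed at the 80.7th, Kdm6b at the 56.1th and Ring1 at the 27.7th percentile. In XX oocytes the order of mean levels was Pcgf1, Ezh2, Pcgf6, Rnf2, Kdm6a, Suz12, Eed, Ezh1, Kdm6b and Ring1. The ranges of neighbouring genes in this order overlapped for Rnf2 and Kdm6a, for Kdm6a and Suz12 and for Suz12 and Eed, and the other neighbours did not overlap. Together the members had 29135 UMIs, between 922 and 1522 CPM in a sample when scaled to the gene total alone.

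**Figure D1:**
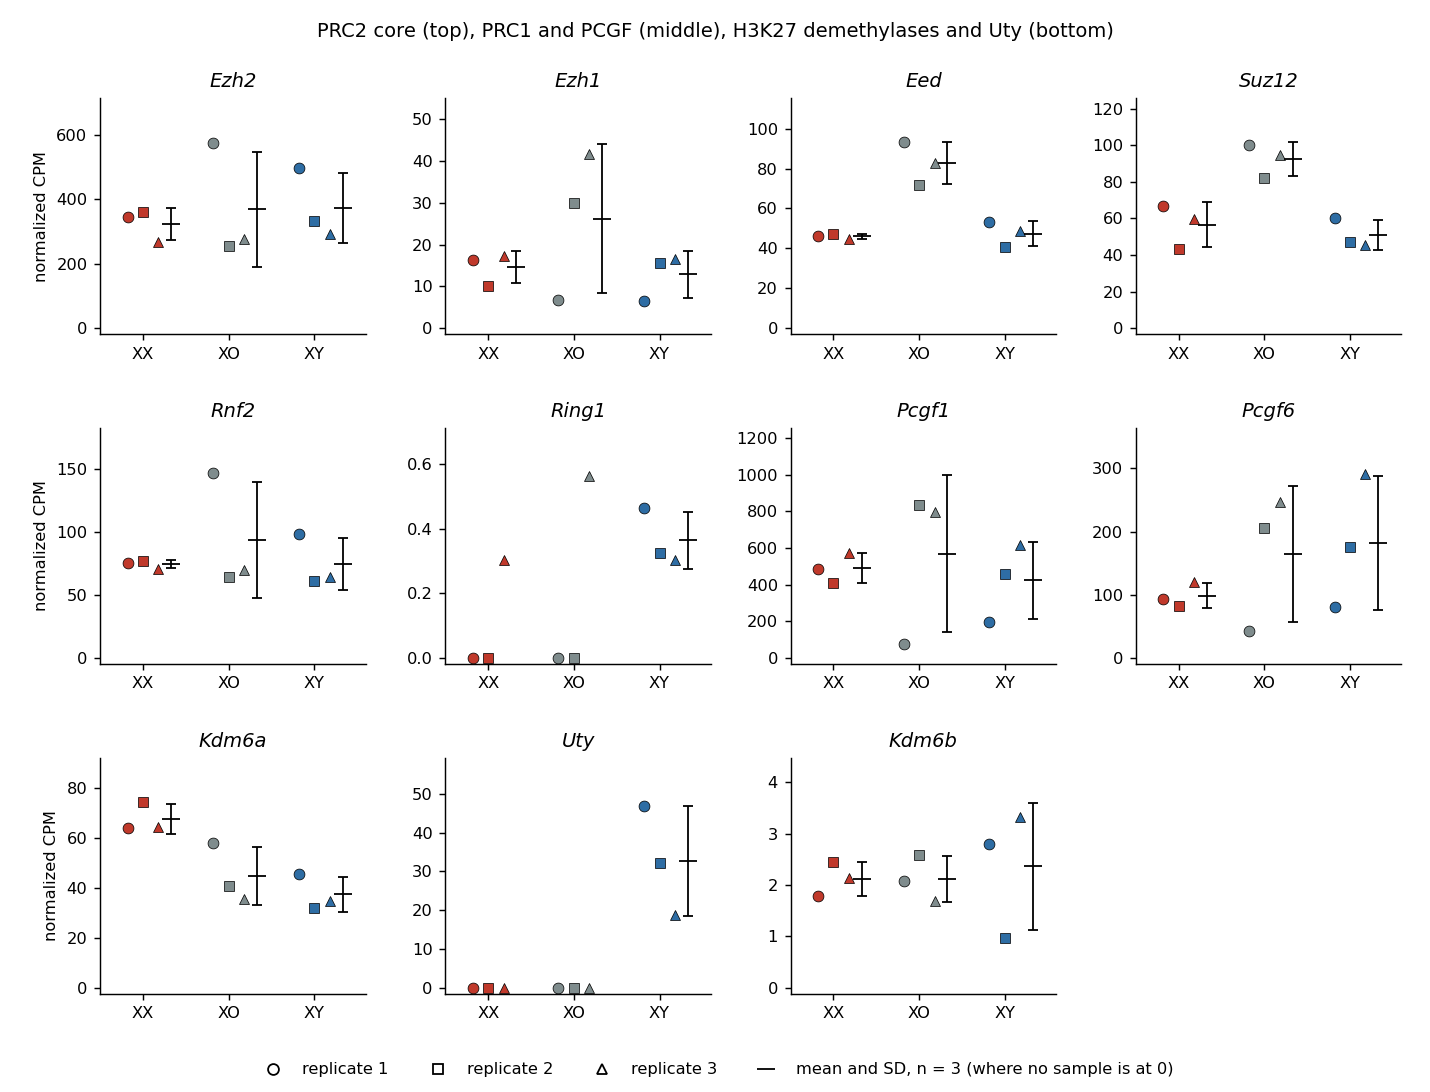
Level of each member and of Uty in each sample (vertical axes, normalized CPM, starting near 0 and scaled per gene) by genotype (horizontal axes), with 1 point per pool shaped by replicate number and the mean and SD of 3 pools beside them where no pool was at 0. Eed and Suz12 lay higher in every XO sample than in any XX or XY sample, Kdm6a lay higher in every XX sample than in any XO or XY sample, and Uty had UMIs in XY samples only. The share of all tested genes that lay apart in these ways was not counted.

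PRC2 transcripts in these oocytes were mostly Ezh2 rather than Ezh1, and Eed and Suz12 were lower in XX and in XY than in XO oocytes. These 2 were called lower in both contrasts, as were 16.7% of all tested genes for XX against XO and 8.24% for XY against XO. Ezh2, on chromosome 6, stood at 345, 361 and 268 normalized CPM in XX1 to XX3, 576, 254 and 277 in XO1 to XO3 and 496, 331 and 293 in XY1 to XY3. Values of the 3 genotypes overlapped, with XO1 and XY1 the highest samples. The mean was 325 ± 50.0 (SD, n = 3) for XX, 369 ± 180 for XO and 374 ± 108 for XY oocytes. The log2 fold changes were -0.18 (SE 0.40) for XX against XO, -0.20 (SE 0.40) for XX against XY and 0.02 (SE 0.40) for XY against XO, with edgeR adjusted p of 0.815, 1.00 and 0.989, so that no difference beyond the spread between pools was detectable.

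Ezh1, the alternative catalytic subunit, on chromosome 11, was at 16.4, 10.2 and 17.4 normalized CPM in XX, 6.73, 30.0 and 41.8 in XO and 6.51, 15.6 and 16.6 in XY samples. XO1 and XY1 were the lowest samples, and the genotypes overlapped. Its log2 fold changes were -0.83 (SE 0.60) for XX against XO, 0.17 (SE 0.60) for XX against XY and -1.0 (SE 0.60) for XY against XO, none of them called (edgeR adjusted p = 0.449, 1.00 and 0.564). Without XO1 it was called lower in both contrasts with XO, at -1.29 and -1.45 (edgeR adjusted p = 0.0354 and 0.0363). The share of all genes that passed without XO1 was not counted. Without XO1 and XY1, 32.4% of tested genes had an adjusted p below 0.05 for XX against XO and 10.5% for XY against XO. Of the UMIs of the pair, Ezh2 took 95.5% ± 1.68 for XX, 91.7% ± 6.30 for XO and 96.3% ± 2.14 for XY oocytes (SD, n = 3). The share did not differ beyond the spread between pools (exact permutation test over the 3 genotypes, two-sided, p = 0.361, adjusted over 6 such tests p = 0.361), although without XO1 the same test gave p = 0.0214.

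Eed, on chromosome 7, was at 46.3, 47.3 and 44.8 normalized CPM in XX, 93.2, 71.9 and 83.0 in XO and 53.0, 40.7 and 48.6 in XY samples. All XO values lay above all XX and XY values, whereas XX and XY values overlapped. How many of all tested genes lay apart in the same way was not counted. The mean of XX oocytes was 46.1 ± 1.25 (SD, n = 3), that of XO 82.7 ± 10.7 and that of XY 47.4 ± 6.23. Eed fell in XX against XO, with a log2 fold change of -0.84 (SE 0.24, edgeR adjusted p = 0.203), and in XY against XO, with -0.80 (SE 0.24, edgeR adjusted p = 0.485). Relative to the median of all genes the differences were -0.38 and -0.50. Without a filter on low counts Eed missed the threshold in both contrasts.

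Suz12, on chromosome 11, was likewise highest in the XO samples, with 67.0, 43.1 and 59.7 normalized CPM in XX, 100.4, 82.2 and 94.8 in XO and 60.4, 46.9 and 45.6 in XY samples. Again the XO samples did not overlap with the others. Suz12 fell in XX against XO by 0.71 on the log2 scale (SE 0.27, edgeR adjusted p = 0.237) and in XY against XO by 0.86 (SE 0.27, edgeR adjusted p = 0.485). The median log2 fold change of all tested genes was itself -0.46 and -0.30 in these contrasts. Without XX2, XX3 or XO3 the first of these missed the threshold, at log2 fold changes of -0.55, -0.75 and -0.69 (edgeR adjusted p = 0.590, 0.352 and 0.536). It also missed it without a filter on low counts. The ratio of Eed to Suz12 UMIs stayed between 0.691 and 1.10 over the 9 samples.

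With TMM factors from the genes, Eed and Suz12 were no longer called in XX against XO (log2 fold changes -0.50 and -0.37, edgeR adjusted p = 0.483 and 0.625), while in XY against XO both stayed past the threshold (-0.64 and -0.69, edgeR adjusted p = 0.539 for each). In CPM scaled to the gene total alone, Eed remained free of overlap, with 52.1 to 55.8 for XX, 58.3 to 78.1 for XO and 47.1 to 53.5 for XY samples. On that scale Suz12 overlapped between XX, with 50.3 to 75.4, and XO, with 66.7 to 84.1, but not between XY, with 47.8 to 61.0, and XO. Between XX and XY neither gene was called, with log2 fold changes of -0.04 for Eed and 0.15 for Suz12 (SE 0.24 and 0.27).

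Of the 8 oocyte markers, the 3 that were called moved in the same direction. The log2 fold changes of Zp1, Gdf9 and Nobox were -3.81, -2.11 and -2.85 for XX against XO and -3.70, -2.10 and -2.38 for XY against XO. Other markers went the other way without being called. Zp2, Ddx4 and Figla were at 0.46, 0.22 and 0.15 for XX against XO, and Zp2 and Ddx4 at 0.20 and 0.25 for XY against XO. The medians over the 8 markers were -1.11 and -1.09. The levels of Zp1 and Nobox in XO1 were 13.98 and 56.4 normalized CPM, below every XX sample, whereas Eed and Suz12 had their highest values in XO1. The part of this marker difference in the changes of Eed and Suz12 was not tested.

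The start regions of these 2 genes, which moved together, are given as the 250 bases before the RefSeq start (GRCm38.p6), with each CpG in capitals. Eed lies at chr7:89980977-89981226 on the minus strand and Suz12 at chr11:79992856-79993105 on the plus strand, both upstream of the first exon as RefSeq places it.
Eed: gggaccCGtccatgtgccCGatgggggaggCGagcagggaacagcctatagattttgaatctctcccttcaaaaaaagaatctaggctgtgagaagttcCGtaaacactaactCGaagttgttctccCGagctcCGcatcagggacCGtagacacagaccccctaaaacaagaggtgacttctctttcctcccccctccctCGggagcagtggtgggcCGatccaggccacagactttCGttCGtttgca
Suz12: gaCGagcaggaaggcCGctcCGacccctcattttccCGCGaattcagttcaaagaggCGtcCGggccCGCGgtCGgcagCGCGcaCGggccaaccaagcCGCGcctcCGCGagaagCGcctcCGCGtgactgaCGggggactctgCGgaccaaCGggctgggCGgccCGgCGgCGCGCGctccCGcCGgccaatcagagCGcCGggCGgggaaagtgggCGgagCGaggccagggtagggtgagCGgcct
The Eed window held 12 CpGs, more than in 66.5% of 32851 windows of the same length before RefSeq starts, and the Suz12 window 37, more than in 97.8%. Such windows were present for 8 of the 10 members, not for Pcgf1 or Kdm6b. CpG counts of the other members were 14 for Ezh1 and for Pcgf6, 15 for Kdm6a, 20 for Rnf2, 23 for Ezh2 and 30 for Ring1.

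Of the RING genes of PRC1, nearly all UMIs were from Rnf2, and in edgeR with all 9 samples no PRC1 member was called in any contrast. Ring1, on chromosome 17, had 5 UMIs over all 9 samples, with 0, 0 and 1 in XX, 0, 0 and 1 in XO and 1 in each XY sample. Because 3 UMIs over the 3 samples of a genotype is the limit that a count of 0 allows, 0.337 normalized CPM for XX, 0.533 for XO and 0.364 for XY oocytes, its levels could not be told apart. Rnf2 took 99.9% ± 0.247 of the UMIs of the pair for XX, 99.7% ± 0.462 for XO and 99.5% ± 0.0352 for XY oocytes (exact permutation test, two-sided, p = 0.293, adjusted p = 0.351).

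Rnf2, on chromosome 1, was at 75.2, 77.0 and 71.0 normalized CPM in XX, 147, 64.1 and 70.0 in XO and 98.1, 61.2 and 64.6 in XY samples. The other samples lay between 61.2 and 77.0, with XO1 and XY1 above them. No contrast was called in edgeR, with log2 fold changes of -0.33 (SE 0.37) for XX against XO, less than 0.01 in size (SE 0.37) for XX against XY and -0.33 (SE 0.37) for XY against XO. With limma and a surrogate variable Rnf2 was called lower in XX against XO (-0.37, limma unadjusted p = 0.0348), where 32.7% of all tested genes were. Gm36527, a gene that overlaps Rnf2 on the same strand, had 7 UMIs against 1809 of Rnf2.

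Pcgf1, the PCGF protein of the KDM2B-BCOR complex, and Pcgf6, that of the MGA-E2F6 complex known for its part in silencing germline genes, were the most variable members. Pcgf1, on chromosome 6, was at 485, 411 and 573 normalized CPM in XX, 74.6, 835 and 799 in XO and 198, 457 and 616 in XY samples. Pcgf6, on chromosome 19, was at 93.0, 81.9 and 120 in XX, 43.0, 205 and 246 in XO and 79.9, 175 and 290 in XY samples. For both genes XO1 was the lowest sample by far, XY1 was lower than any XX sample, and the genotypes overlapped.

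Log2 fold changes of Pcgf1 were -0.22 (SE 0.74) for XX against XO, 0.21 (SE 0.74) for XX against XY and -0.43 (SE 0.74) for XY against XO. Those of Pcgf6 were -0.74 (SE 0.63), -0.89 (SE 0.63) and 0.14 (SE 0.62), with edgeR adjusted p of 0.521, 1.00 and 0.938. The calls of this pair depended on the model and on XO1 and XY1. With limma and a surrogate variable Pcgf1 was called higher in XX against XO (0.75, limma adjusted p = 0.00240) and in XY against XO (0.48, limma adjusted p = 0.0631), and without XO1 and XY1 it was called lower in both (-0.74 and -0.61, edgeR adjusted p = 0.0405 and 0.179). Pcgf6 in XX against XY was called lower under both, at -0.80 (limma adjusted p = 0.00107) and -1.24 (edgeR adjusted p = 0.0739).

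The balance between the pair varied less than the levels did. Pcgf6 made up 16.1, 16.6 and 17.4% of Pcgf1 and Pcgf6 UMIs in XX1 to XX3, 36.6, 19.7 and 23.6% in XO1 to XO3 and 28.7, 27.7 and 32.0% in XY1 to XY3. Each of the 6 samples with 1 X chromosome lay above each XX sample. The test over the 3 genotypes did not pass (exact permutation test, two-sided, p = 0.0893, adjusted over 6 tests p = 0.268, smallest p possible 0.00357). It did pass for the log2 ratio of Pcgf6 to Pcgf1 (p = 0.0464), without XO1 (p = 0.00357) and without XO2 (p = 0.0393), all unadjusted and by the same exact test.

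In 5 of the PRC genes XO1 and XY1 both lay outside the range of the other 7 samples. The pair lay below it in 3 and above it in 2, beside 17.7% and 18.6% of all tested genes. The mean of the other 7 samples was 4.37 times the mean of this pair for Pcgf1, 3.19 times for Ezh1 and 2.82 times for Pcgf6. It was 0.568 times for Ezh2 and 0.563 times for Rnf2. Pcgf1 accounted for 6.77% of all member UMIs in XO1 and 19.1% in XY1, against 37.1 to 52.7% in the other samples, and the ratio of Pcgf1 to Ezh2 UMIs was 0.129 and 0.400, against 1.14 to 3.29. These were ratios within a sample, which no scaling alters. Kdm6a, at 5.27% and 4.37% of member UMIs, lay within the 2.16 to 6.72% of the others. What set the pair apart was not tested.

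**Figure D2:**
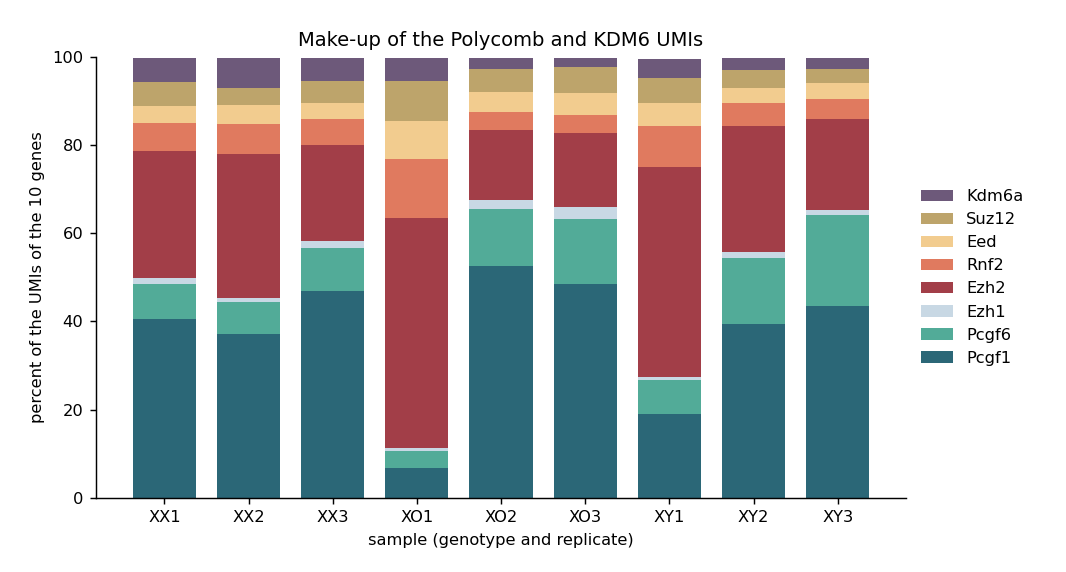
Percent of the UMIs of the 10 members (vertical axis) that fell to each of 8 genes in each sample (horizontal axis), stacked. Ring1 and Kdm6b are left out for their low counts. The Pcgf1 share was 6.77% in XO1 and 19.1% in XY1 and at least 37.1% in every other sample, while the Ezh2 share was 52.3% and 47.7% in that pair and at most 32.6% in the others.

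Across the 9 samples, which share the spike-in scaling and include XO1 and XY1, log2 levels of Pcgf1 and Ezh2 ran opposite (Pearson r = -0.96), and so did those of Pcgf1 and Rnf2 (r = -0.95). Eed and Suz12 had r = 0.89, and Ezh2 and Rnf2 r = 0.90. The 3 tested genes with levels most like those of Ezh2 were Platr14 (r = 0.993), Med6 (0.993) and 0610040F04Rik (0.992), and of Rnf2 they were Taf11 (0.987), Gm42457 (0.984) and Gm16124 (0.984), out of 10980 genes compared.

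Among the H3K27 demethylases, Kdm6a rose in XX against XY oocytes, as did 1.41% of all tested genes, and Kdm6b had few UMIs. Kdm6a, on the X chromosome (chrX:18162575-18279936, plus strand, GRCm38), was at 64.1, 74.6 and 64.6 normalized CPM in XX, 58.0, 40.8 and 35.6 in XO and 45.5, 32.2 and 35.0 in XY samples. Every XX sample lay above every XO and XY sample, whereas XO and XY overlapped. The mean was 67.8 ± 5.91 (SD, n = 3) for XX, 44.8 ± 11.7 for XO and 37.6 ± 7.03 for XY oocytes. For XX against XY the fold was 1.80, a log2 fold change of 0.85 (SE 0.28, edgeR adjusted p = 0.629), and without XY2 it was 0.75 and missed the threshold.

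For XX against XO the log2 fold change of Kdm6a was 0.60 (SE 0.28, edgeR adjusted p = 0.291) and did not pass the threshold. It did pass with TMM factors (0.92, edgeR adjusted p = 0.339) and without XO1 (0.83, edgeR adjusted p = 0.0423). The share of all genes that passed without XO1 was not counted. Without XO1 and XY1, 32.4% of tested genes had an adjusted p below 0.05 in this contrast. Relative to the median of all genes, the log2 difference of Kdm6a was 1.05 for XX against XO and 1.04 for XX against XY, and with TMM factors 1.04 in each. Between XY and XO it was not called, with -0.26 (SE 0.28, edgeR adjusted p = 0.739).

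Both XO and XY oocytes carry 1 X chromosome, and their 6 samples were therefore also set against the 3 XX samples. The mean log2 level was 0.73 higher in XX, in 3 of 3 samples, with an exact permutation p of 0.0119 (two-sided), the smallest that 84 splits allow, and 0.0714 after adjustment over 6 tests. Of 369 X-linked genes tested, the log2 fold change of Kdm6a stood at the 70.5th percentile for XX against XO, the 74.3th for XX against XY and the 46.1th for XY against XO. The median of the X-linked genes was 0.31, 0.56 and -0.20 in these contrasts, and 18.2%, 24.1% and 1.9% of them were called higher in the first genotype. The 3 genes whose levels were most like those of Kdm6a over the 9 samples were the X-linked Gm2101 (Pearson r = 0.977), Gm3669 (0.975) and Gm2117 (0.974), predicted genes with like names, and how reads were shared among copies was not tested.

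Uty, the Y-linked homolog (chrY:1096861-1245759, minus strand, GRCm38), had no UMI in any XX or XO sample and 101, 99 and 62 UMIs in XY1 to XY3, or 46.9, 32.2 and 18.7 normalized CPM. Its mean in XY oocytes, 32.6 ± 14.1 (SD, n = 3), was at least 96.8-fold higher than the limit of 3 UMIs over the XX samples and at least 61.2-fold higher than that over the XO samples. Uty UMIs were 1.03, 1.00 and 0.534 times those of Kdm6a in the same samples. The sum of Kdm6a and Uty was 67.8 ± 5.91 normalized CPM for XX, 44.8 ± 11.7 for XO and 70.2 ± 20.0 for XY oocytes. These sums did not differ beyond the spread between pools (exact permutation test over 3 genotypes, two-sided, p = 0.154, adjusted p = 0.268).

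**Figure D3:**
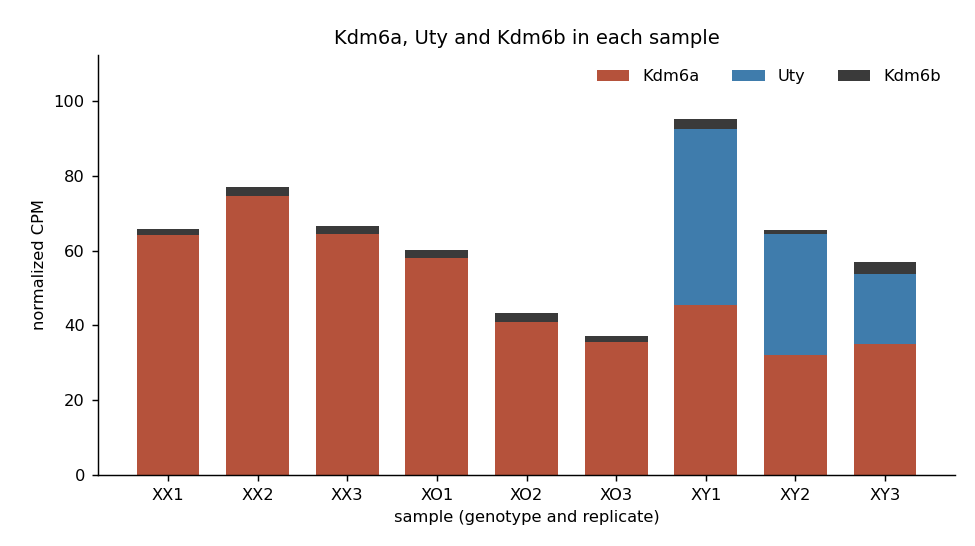
Levels of Kdm6a, Uty and Kdm6b (vertical axis, normalized CPM, stacked from 0) in each sample (horizontal axis). Kdm6a alone made up nearly the whole bar in XX and XO samples, and Uty added 46.9, 32.2 and 18.7 in XY1 to XY3.

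In the GRCm38 reference the homologs differ in sequence within the first coding exon. The Uty bases here and below are those of the reference. The Y chromosome of the XY females was of another origin, and its sequence was not examined. The first coding bases of each are shown to let the pair be compared, and where within the transcripts the UMI reads fell was not analysed here. They lie within the first coding exon of Gencode vM21 (GRCm38), with capitals for bases that differ in the alignment or have no partner in it. Kdm6a spans chrX:18163006-18163125 on the plus strand and Uty chrY:1245454-1245552 on the minus strand.
Kdm6a: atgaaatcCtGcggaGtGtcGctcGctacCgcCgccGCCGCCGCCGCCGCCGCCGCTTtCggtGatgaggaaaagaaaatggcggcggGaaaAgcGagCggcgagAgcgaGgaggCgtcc
Uty: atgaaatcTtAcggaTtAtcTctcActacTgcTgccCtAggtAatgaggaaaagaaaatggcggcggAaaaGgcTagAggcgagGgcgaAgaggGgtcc
Of 99 aligned bases 81 were identical and 18 differed, and Kdm6a had 21 further bases, most of them a run of GCC repeats whose placement the alignment does not fix. Over the whole coding sequence, 3030 of 3621 aligned bases were identical, 83.7%, against 61.1% for Kdm6a and Kdm6b, 70.4% for Ezh1 and Ezh2 and 67.0% for Rnf2 and Ring1.

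The windows of 250 bases before the RefSeq starts of the homologs, again with CpGs in capitals, lie at chrX:18162325-18162574 (plus strand) and chrY:1245760-1246009 (minus strand, both GRCm38.p6).
Kdm6a: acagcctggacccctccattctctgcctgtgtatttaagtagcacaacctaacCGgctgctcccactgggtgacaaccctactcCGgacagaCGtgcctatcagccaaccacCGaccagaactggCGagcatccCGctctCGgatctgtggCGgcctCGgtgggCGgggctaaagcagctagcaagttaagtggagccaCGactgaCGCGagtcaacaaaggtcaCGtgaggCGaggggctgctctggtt
Uty: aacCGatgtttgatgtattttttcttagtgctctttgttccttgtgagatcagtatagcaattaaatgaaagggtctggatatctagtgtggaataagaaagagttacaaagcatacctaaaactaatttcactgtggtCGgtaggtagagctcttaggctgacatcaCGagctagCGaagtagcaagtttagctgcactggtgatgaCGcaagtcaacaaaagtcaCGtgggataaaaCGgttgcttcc
In these reference sequences the Kdm6a window held 15 CpGs and the Uty window 7, more than in 72.7% and 53.7% of windows. Aligned to each other they were identical at 126 of 221 aligned bases (57.0%), and the longest run in common, AGTCAACAAA, ended 30 bases before the start of Kdm6a and 28 before that of Uty.

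Kdm6b, on chromosome 11, had 51 UMIs over the 9 samples and was not tested. Its level was 1.78, 2.45 and 2.13 normalized CPM in XX, 2.07, 2.58 and 1.69 in XO and 2.79, 0.977 and 3.32 in XY samples, and the genotypes overlapped. Kdm6a took 97.0% ± 0.281 of the UMIs of the pair for XX, 95.4% ± 1.26 for XO and 94.2% ± 2.86 for XY oocytes (SD, n = 3). The share did not differ beyond the spread between pools (exact permutation test, two-sided, p = 0.179, adjusted p = 0.268).

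The calls among the members are set beside those over all tested genes. For XX against XO, 2 of the 8 tested members were called lower (Eed and Suz12) and 0 higher, where 16.7% of all tested genes were called lower and 1.4% higher. With TMM factors the split was 0 lower and 1 higher (Kdm6a), where 7.86% were lower and 4.38% higher. For XX against XY, 1 member was called higher (Kdm6a), where 1.41% of all genes and 24.1% of X-linked genes were, and 0 lower, where 4.39% were. With TMM factors Kdm6a was again the 1 called higher, beside 2.67% of all genes, and 0 were lower, beside 2.47%. For XY against XO, 2 members were called lower (Eed and Suz12), where 8.24% of all genes were, and 0 higher, where 1.69% were. With TMM factors these 2 were again lower, beside 5.69% of all genes, and 0 were higher, beside 3.33%. In either direction 18.1%, 5.8% and 9.93% of all tested genes were called in the 3 contrasts.

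No member passed an edgeR adjusted p of 0.05 in any contrast, where 0%, 0.0819% and 0.0364% of all genes did, and none did with DESeq2. With limma and 1 surrogate variable 4, 2 and 3 members passed it, where 25.4%, 10.1% and 12.4% of all tested genes did. In edgeR without XO1 and XY1 5 members passed it for XX against XO (Ezh1, Eed, Pcgf1, Pcgf6 and Kdm6a), where 32.4% of the genes tested then did.

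**Figure D4:**
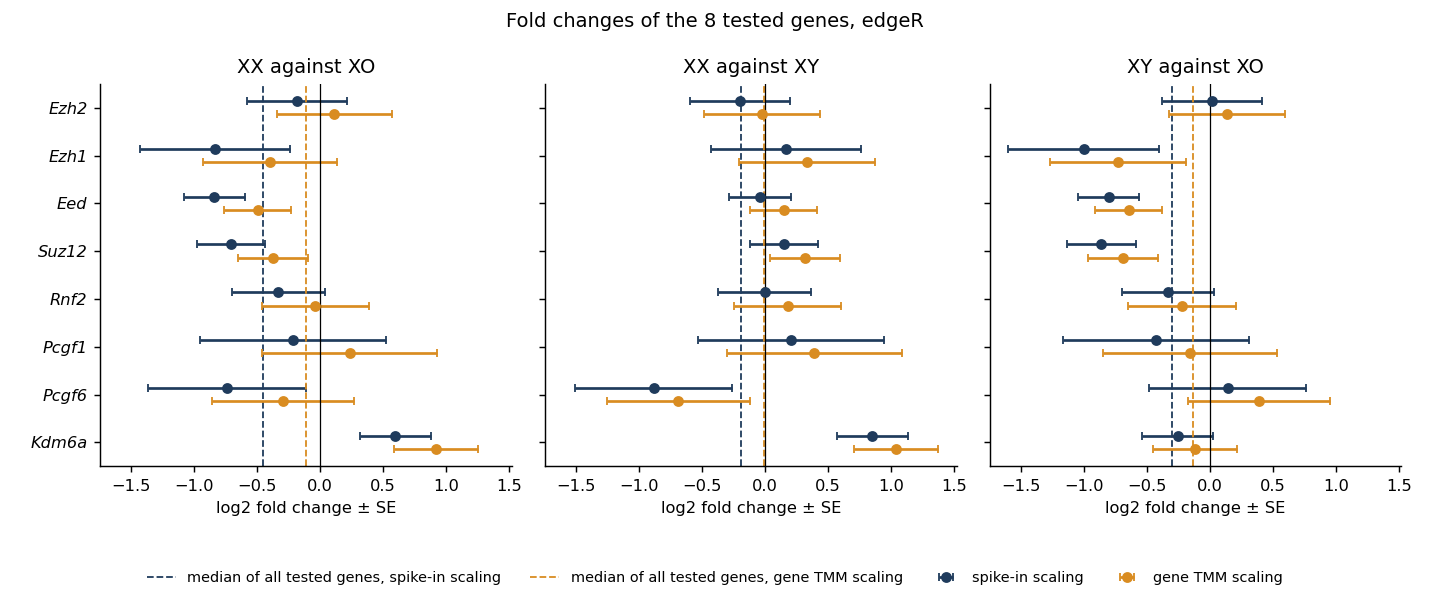
Log2 fold change with SE (horizontal axes) of the 8 tested members (vertical axes) in the 3 contrasts, by edgeR with spike-in factors (dark) or TMM factors of the genes (orange), with the median of all tested genes under each as a dashed line and 0 as a solid line. Under both scalings Kdm6a was positive for XX against XO and for XX against XY and negative for XY against XO, and Eed and Suz12 were negative in both contrasts with XO.

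The median log2 fold change of the 8 members was -0.52 for XX against XO, 0.07 for XX against XY and -0.38 for XY against XO, beside -0.46, -0.19 and -0.30 over all genes. Without XO1 and XY1, 6 members were called in XX against XO, 1 higher (Kdm6a) and 5 lower (Ezh1, Eed, Suz12, Pcgf1 and Pcgf6), but so were 41.7% of the genes tested then. In XX against XY it was 2, Kdm6a higher and Pcgf6 lower (log2 fold change -1.24), at a background of 15.7%. In XY against XO it was 4, all lower, at a background of 27.8%, and Ezh1 was one of them (log2 fold change -1.15).

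Of 36 further Polycomb genes, in lists of PRC2 partners, canonical PRC1, variant PRC1 and H2A deubiquitination, 26 were tested. For XX against XO, 0 were called higher and 3 lower, with a median log2 fold change of -0.42, where 16.7% of all tested genes were lower. The 3 were Auts2, a partner of PCGF3 and PCGF5 complexes, Kdm2b, which brings PRC1 to CpG islands together with PCGF1, and Scmh1. With TMM factors only Scmh1 remained. For XX against XY, 2 were called higher, both X-linked, and 1 lower, with a median of -0.20, where 1.41% of all tested genes were higher and 4.39% lower. For XY against XO, 1 was called lower, where 8.24% of all tested genes were, and 0 higher, with a median of -0.30, and 0 were called with TMM factors.

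Auts2 was at 111, 93.8 and 106 normalized CPM in XX, 226, 157 and 183 in XO and 190, 137 and 162 in XY samples, with each XX sample below all others. Its log2 fold change was -0.86 for XX against XO (SE 0.28, edgeR adjusted p = 0.203) and -0.65 for XX against XY (SE 0.28, edgeR adjusted p = 0.802), and with TMM factors -0.53 and -0.47, which missed the threshold. Kdm2b was -0.70 in XX against XO (SE 0.29, edgeR adjusted p = 0.251). Scmh1 was -2.14 (SE 0.79, edgeR adjusted p = 0.228), but its XO values were 1.55, 10.3 and 16.4 normalized CPM, and XO1 lay within the XX range of 1.07 to 3.35.

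Of the X-linked genes in these lists, Rbbp7, a histone-binding subunit of PRC2, was at 245, 240 and 190 normalized CPM in XX, 240, 101 and 108 in XO and 146, 93.8 and 101 in XY samples. XX and XY did not overlap, and XO1 was the only sample with 1 X chromosome within the XX range. Rbbp7 rose in XX against XY with a log2 fold change of 0.98 (SE 0.39, edgeR adjusted p = 0.765). AU022751, the gene of the PRC2 inhibitor EZHIP that is known from germ cells, was at 54.1, 36.1 and 33.8 in XX, 38.8, 31.5 and 37.3 in XO and 25.6, 23.8 and 20.8 in XY samples. It rose in XX against XY, with 0.82 (SE 0.28, edgeR adjusted p = 0.636), but was not called between XX and XO, with 0.20 (SE 0.28). The X-linked Bcor had 54 UMIs in all and was not tested, and Bcorl1 was not called in any contrast.

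Bmi1 (PCGF4), a PCGF protein of canonical PRC1, was at 95.8, 102 and 116 normalized CPM in XX, 127, 143 and 157 in XO and 90.6, 87.9 and 108 in XY samples. It fell in XY against XO by 0.57 on the log2 scale (SE 0.25, edgeR adjusted p = 0.501), and the value with TMM factors, -0.39, missed the threshold. Epop had 2 UMIs and Cbx6 had 1 over all samples.

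**Figure D5:**
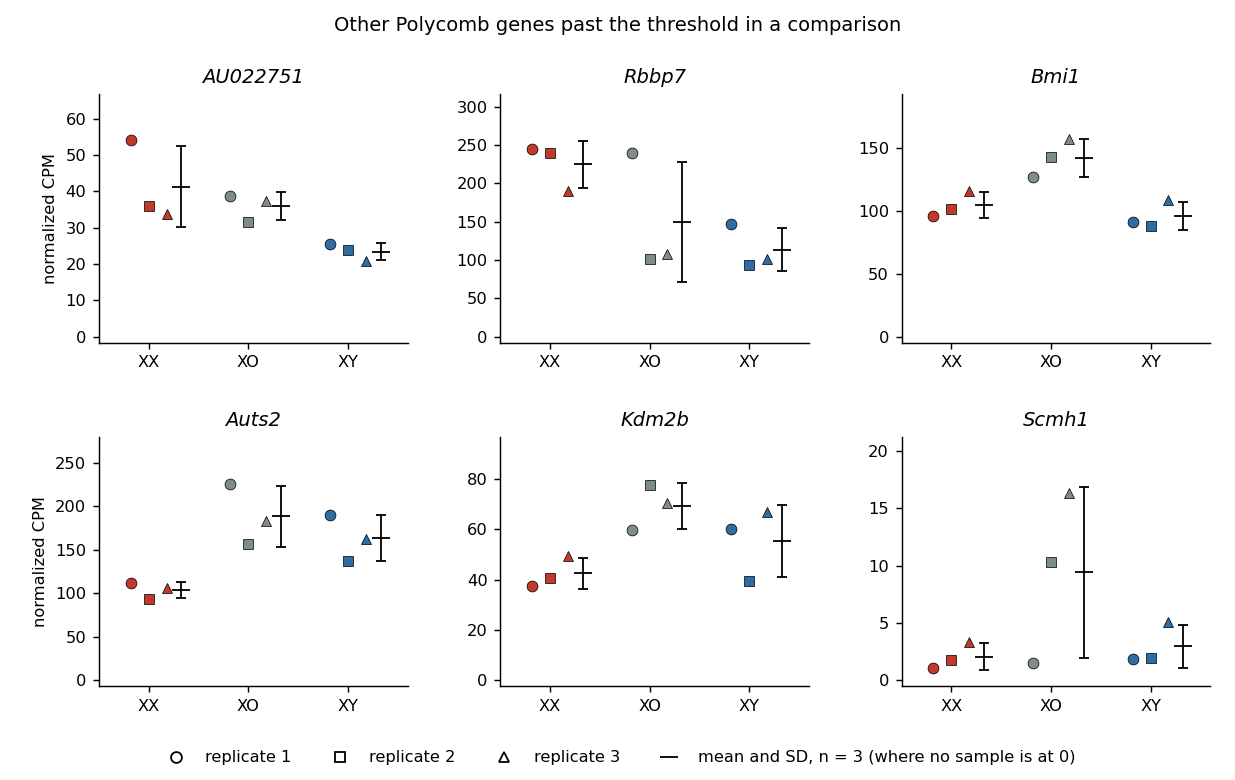
Levels by sample (vertical axes, normalized CPM) and genotype (horizontal axes) of the 6 further Polycomb genes that passed the unadjusted threshold in at least 1 contrast, with mean and SD of 3 pools. XX and XY samples of the X-linked AU022751 and Rbbp7 did not overlap, and each XO sample of Bmi1 lay above all XX and XY samples.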

How the data were processed

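The 9 libraries were grouped by the genotype in the sample labels. The authors aligned stranded reads with HISAT2 to GRCm38 and Gencode, kept reads of 5′ exons and deposited UMI counts per gene with 79 ERCC spike-ins. A second deposited matrix holds a signal that the authors call normalized CPM. When checked, it equalled the counts divided by the gene total and the TMM factor of the spike-ins. A further deposited matrix, of log2 values after regression on batch by the authors, was not used. The matrices hold 28052 and 28051 genes.

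The quasi-likelihood test of edgeR 4.0.16 was run on the counts, with spike-in factors, a mean per genotype and all 9 samples in 1 fit, over genes kept by filterByExpr. Calls were made at an unadjusted p of 0.05, the threshold of the study, with Benjamini-Hochberg adjusted p over the 10993 genes tested beside them. The common dispersion was 0.2014, and on simulated data for XX against XO with 11209 genes, 28.0% of 2-fold and 86.9% of 4-fold changes and 4.78% of unchanged genes were called. The simulation gave every gene this dispersion, with known scaling and no differences between pools shared by genes. Its rates therefore do not measure how often the test errs on the real pools. Single values per sample were compared by exact permutation tests, with a pseudocount of 1 normalized CPM for log2 levels. Alternatives were TMM factors of the genes, DESeq2 1.42.0, no filter, a replicate block, limma 3.58.1 with sva 3.50.0 (1 surrogate variable), an adjusted threshold and leaving out each sample. Leaving out XO1 and XY1 together, and the block with TMM factors, were added after the data were seen. Deviations of like-numbered XO and XY samples correlated at 0.830, 0.278 and 0.773 across tested genes, each above 0.1, and these samples were treated as pairs, from the data alone, although replicate 2 correlated at up to 0.721 with a pool of another number. The pairing entered the block alternatives only. XX samples were not treated as paired with either. Their replicate 2 correlated at -0.447 with XO2 and -0.060 with XY2, although replicates 1 and 3 correlated at 0.435 to 0.726 with like numbers. The XO column without a number was taken as XO1.

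The members and lists were chosen with earlier results of these data known. Genes were named by a rule: the 10 members and Uty, further listed Polycomb genes with an unadjusted p below 0.05 in a contrast, those that are X-linked or had under 3 UMIs, and the 3 genes most correlated with Kdm6a, Ezh2 and Rnf2. A listed gene that this rule names is not reported here. Gene start windows came from RefSeq and coding sequences from Gencode vM21. UMIs are molecules rather than reads, and limits on a count of 0 cover counting error only.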

Additional observations from a re-analysis of the deposited data

How the results depend on the processing

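The number of members called depended on the processing. For XX against XO it was 2, and it was 1 with TMM factors, 1 with DESeq2 size factors, 1 with TMM factors and the replicate block, 0 without a filter, 5 with surrogate variables and 6 without XO1 and XY1. For XX against XY it was 1, and 2 with surrogate variables or without XO1 and XY1. For XY against XO it was 2, with 5 under surrogate variables and 4 without XO1 and XY1, and without a filter the 2 were Suz12 and Ezh1 (-1.0), while Eed (-0.80) lost its call. With an adjusted threshold it was 0 in each of the 3 contrasts. Leaving out 1 sample gave 1 to 5, 0 to 2 and 2 to 4, with the highest counts without XO1 and the 0 without XY2. The replicate block gave 3, 1 and 2 members. It added the call of Kdm6a in XX against XO (log2 fold change 0.63, edgeR adjusted p = 0.187), where samples were not treated as pairs. The XO and XY samples were treated as pairs from the data alone, and no label states such a pairing. In XY against XO the block changed no call of a member, while the background rose from 9.93% to 16.6%. With surrogate variables 38.4%, 23.5% and 28.1% of all tested genes were called in the 3 contrasts, and without XO1 and XY1 41.7%, 15.7% and 27.8%. For XX against XO the share was 12.2% with TMM factors, 13.7% with DESeq2, 17.8% with TMM factors and block and 23% with the block.

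The Pcgf6 share of Pcgf1 and Pcgf6 passed the threshold as a log2 ratio (difference of 1.06, exact permutation test, p = 0.0464), and leaving out 1 sample gave differences of 11.5 to 13.7 percentage points. The Ezh2 share gave 2.14 to 8.13 percentage points.

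The direction of members changed as follows, in log2 fold change, none of them called with all 9 samples in edgeR. Pcgf1 was called in opposite directions in both contrasts with XO, higher with surrogate variables and lower without XO1 and XY1 (-0.74 and -0.61). In XX against XO, Ezh2 was 0.11 with TMM factors, 0.068 with DESeq2, 0.26 with TMM factors and block and 0.29 without XO1 and XY1. Rnf2 was 0.13 and 0.15 under the last 2 of these. Pcgf1 was 0.24 with TMM factors, 0.20 with DESeq2, 0.28 with the replicate block, 0.75 with surrogate variables and 0.69 with TMM factors and block. In XX against XY, without XO1 and XY1 Ezh1 was -0.14, Ezh2 0.056, Eed 0.046, Rnf2 0.24 and Pcgf1 -0.13. With TMM factors Eed was 0.15 and Rnf2 0.18, with DESeq2 0.13 and 0.16, and with TMM factors and block 0.16 and 0.25, where Ezh2 was 0.042. Rnf2 was 0.053 with the block and 0.055 with surrogate variables. In XY against XO, surrogate variables gave -0.088 for Ezh2 and 0.48 for Pcgf1, and TMM factors with the block 0.038 for Pcgf1. Leaving out 1 sample turned the direction within these ranges: in XX against XO, Ezh2 -0.39 to 0.29, Rnf2 -0.55 to 0.15 and Pcgf1 -0.74 to 0.17, in XX against XY, Ezh1 -0.14 to 0.39, Ezh2 -0.35 to 0.056, Eed -0.14 to 0.047, Rnf2 -0.13 to 0.24 and Pcgf1 -0.13 to 0.58, and in XY against XO, Ezh2 -0.24 to 0.49, Rnf2 -0.58 to 0.15 and Pcgf6 -0.37 to 0.55. The causes were not tested. Eed and Suz12 stayed negative against XO, and Kdm6a positive in XX, under every setting run. With 3 pools per genotype, and 5 UMIs of Ring1 and 51 of Kdm6b, changes of these low genes could not be assessed.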

Other observations

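Genes that Polycomb is known to silence had very few UMIs. The 17 Hox genes with a count row had 129 UMIs over the 9 samples, and the 5 genes known as targets of maternal H3K27me3 imprinting (Gab1, Jade1, Sfmbt2, Slc38a4 and Smoc1) had 64. None of either list, 0 of 17 and 0 of 5, had enough UMIs to be tested, where 10993 of all 28052 genes with a count row had.

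Among the 26 further Polycomb genes tested, 7 had XO1 and XY1 as their lowest samples (Phf1, Cbx2, Pcgf3, Pcgf5, Rybp, Bcorl1 and L3mbtl2) and 5 as their highest (Rbbp4, Mtf2, Yaf2, Mga and Auts2), beside 17.7% and 18.6% of all tested genes. Most of these genes were chosen for naming after their values were seen. Pcgf3, with 44140 UMIs, had more than any member and was at 477 normalized CPM in XO1 and 656 in XY1, against 793 to 4789 in the other 7 samples.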
